A study of Mus musculus with 4 samples.

Results

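Mouse embryonic fibroblasts infected with OCT4, SOX2, KLF4 and c-MYC, the OSKM group, were compared with fibroblasts infected with an empty vector. The members are the genes at 1 RPKM or more in either group, which were 10212 of the 27597 genes listed in the tables. The deposited unit, RPKM, is a read count divided by gene length in kilobases and by depth in mega-reads, and a gene that was absent from a table was counted as 0. For each gene the difference is given as the log2 ratio, the log2 of OSKM RPKM + 1 over empty vector RPKM + 1. A gene is said to have risen or fallen where this log2 ratio was at least 1 in size.

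The study set out to find factors that reprogram somatic cells in addition to those of OSKM, and beside the empty vector and OSKM it had a group without OCT4, named SKM, and one with GATA3 in the place of OCT4, named G3SKM. All groups were mouse embryonic fibroblasts of the strain OGXICR, labelled D13.5, taken from skin after removal of the epidermis and grown in DMEM with serum. The factors came from a doxycycline-inducible lentivirus, the labels give the empty vector as an infection too, and how long the factors were induced is not stated in the sources used here. The empty vector group and the OSKM group each have 1 value per gene, which stands for 2 replicates combined, so a difference has no replicate check and no p-value is given. Values of delivered factors hold reads from the virus and from the cell's own gene together, and a bulk value cannot tell fewer cells of a type from less RNA per cell.

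OCT4, SOX2, KLF4 and c-MYC are transcription factors that can return a differentiated cell to a pluripotent state. In fibroblasts, the early phase of this process is known for loss of the mesenchymal program, gain of epithelial genes and faster growth, while the genes of the pluripotent network itself are switched on late and in few cells. OCT4 and SOX2 bind DNA together, KLF4 activates epithelial genes, and c-MYC raises the output of growth genes.

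Of the 10212 genes, 492 rose (4.82%) and 425 fell (4.16%), which makes 917 (8.98%) past the rule, and 9295 stayed under it. The median log2 ratio was 0.18, so the typical gene sat slightly higher in the OSKM library, and 53.7% of the genes past the rule were higher. With ratios centred on that median, 294 genes rose and 612 fell, and the share that was higher was 32.5%. With a trimmed mean as the centre it was 33.7%. Changes below are therefore read beside the median of 0.18. Of the genes named below as having risen, Cbx2, Fgf4, Hbb-y, Hist1h3c, Hist1h4n, Isg15, Klf4, Ldhb, Mcm7, Mybl2, Nop16, Nop56, Nr0b1, Pdk1, Polr1c, Prmt5, Rprl2, Cdkn2a, Tigar and Sdf2l1 had log2 ratios that fall under the rule once centred on the median. A member of a gene list that was silent with the empty vector could reach 1 RPKM only by being high in OSKM, so counts over the measured members of a list describe them and support nothing. A log2 ratio of at least 2 was reached by 68 genes that rose and 61 that fell, and one of at least 4 by 7 and 1. Nearest to the rule, Cbx2 lay just inside at 1.0003 and Pi16 just outside at 0.9991. On the lower side Clic1 was just inside at -1.0007 and Fez2 just outside at -0.9992. At the threshold on level, Bicra was inside with 1.00 RPKM in OSKM and Akap8l outside with 0.999 RPKM.

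**Figure D1:**
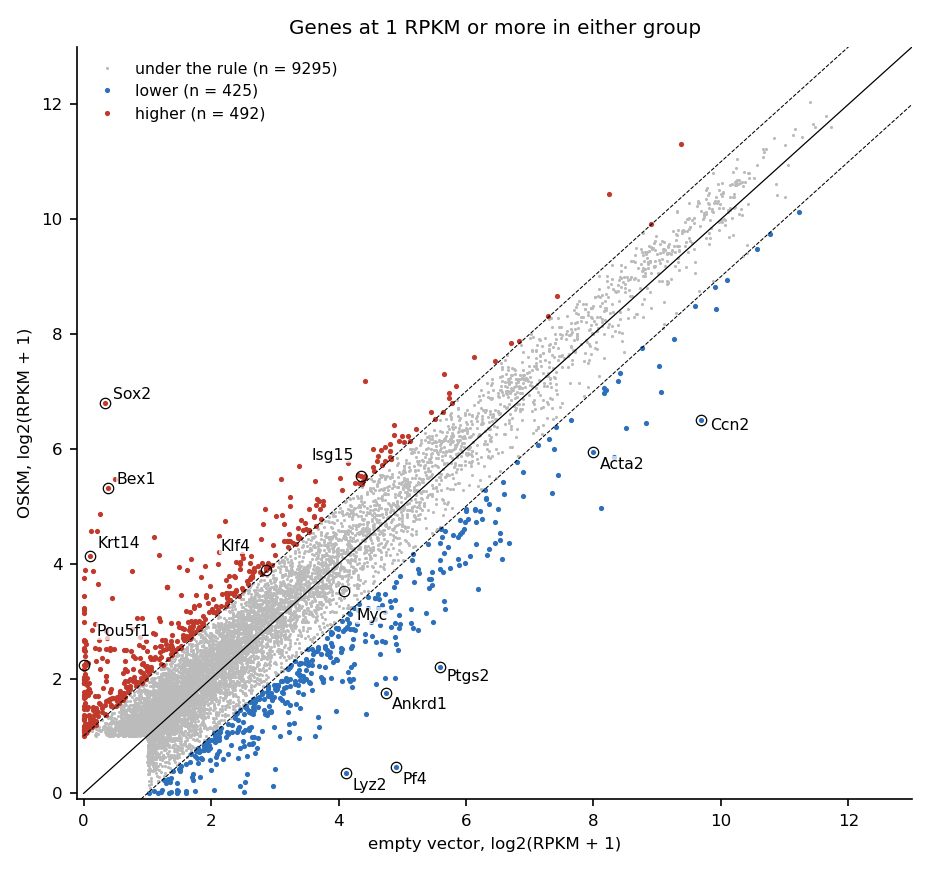
Each point is 1 of 10212 genes, with log2(RPKM + 1) in the empty vector group on the x axis and in the OSKM group on the y axis; the solid line marks equal values and the dashed lines a log2 ratio of 1 in either direction. The 492 red points rose and the 425 blue points fell, with Sox2 farthest above the line and Pf4 and Lyz2 farthest below it.

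The reads recovered from the smallest steps of the values came to 111 M (mega-reads) for the empty vector group and 74.7 M for OSKM, within 54.0 M to 111 M over the 4 groups. The deposited values appear to divide by the span of a gene from its start to its end, introns included, and on such a scale a long gene with many introns has a low RPKM and can stay under 1 RPKM. No source used here states the length. It was inferred from the values, since RPKM times span came out as whole reads for 76.6% of genes with 1 to 1000 reads in the empty vector group and 75.6% in OSKM, and every exon-length value rests on it. Rescaled to exon length, 14849 genes were at 1 RPKM or more, of which 1324 rose (8.92%) and 731 fell (4.92%), around a median of 0.23. Values marked exon length below are on that scale. Folds carry a 95% interval from counts of reads, which covers counting error only, since the reads came from amplified cDNA and replicates were not separate. Against a group with no reads, a fold is a lower bound computed at 3 reads. Whether reads were counted by strand is not stated, so reads of overlapping or antisense genes cannot be told apart.

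The delivered factors were examined first. Sox2 stood at 0.260 RPKM with the empty vector and at 110.5 in OSKM, while the SKM group had 187 and the G3SKM group 70.7, and its log2 ratio in OSKM, 6.47, was the largest rise among all 10212 genes. Its fold was 425 (332 to 562). Pou5f1, which encodes OCT4, had no reads with the empty vector and 3.69 RPKM in OSKM, at least 650.4-fold higher, while SKM and G3SKM, which did not receive it, had 0.297 and 0.212 RPKM. The OSKM label therefore matches the factor that sets it apart. Klf4 went from 6.26 RPKM with the empty vector to 13.9 in OSKM, a fold of 2.22 (2.13 to 2.32) and a log2 ratio of 1.04, just past the rule. Myc did not rise with its virus: it was at 16.0 RPKM in the empty vector group and 10.5 in OSKM, a log2 ratio of -0.56, and stood at 11.9 in SKM and 6.31 in G3SKM. In all 3 groups that received c-MYC, the summed viral and cellular Myc value was below that of the empty vector group.

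Relatives of the delivered factors also carried reads in OSKM. Sox3, an X-linked relative of Sox2, had no reads with the empty vector and 8.14 RPKM in OSKM, and Sox21 went from 0.00711 to 2.81 RPKM. Their reads came to 7.39% and 4.70% of those on Sox2 in OSKM, so reads shared between similar sequences are possible and both are uncertain. Sox3 had 1255 reads in OSKM, 1476 in SKM and 909 in G3SKM, and Sox21 had 798, 719 and 841. Sox1, also of the Sox family, had no reads in any group. Whether reads were shared was not tested. Pou3f4, a POU-domain relative of Pou5f1, had 59 reads with the empty vector and 1167 in OSKM, against 325 in SKM and 240 in G3SKM. These counts are not scaled for depth, which was 111 M, 74.7 M, 54.0 M and 102 M reads in that order.

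Beside Sox2, the largest rises on the deposited scale were found in 3 kinds of genes. The first were small X-linked adaptor genes: Bex1 rose from 0.309 to 38.8 RPKM (log2 ratio 4.93) and Bex4 from 0.199 to 27.997 (log2 ratio 4.5961). These neighbours belong to the BEX family, known for its part in growth and differentiation signals. The second were the osteocalcin genes, which encode a protein of bone matrix: Bglap2 rose from 0.0841 to 22.6 RPKM and Bglap from 0.112 to 13.6. Since the copies are near-identical, the split of reads between them is uncertain. The third were epidermal genes, among them Krt14, Krt16, Cnfn and Slurp1, described below. Phlda2, an imprinted gene that limits placental growth, rose from 0.172 to 11.6 RPKM, a fold of 67.5 (46.8 to 98.6). On exon length the largest rises also took in Fetub, a secreted protease inhibitor, at 0.276 RPKM with the empty vector and 55.3 in OSKM. Nat8f3 and Nat8f6, members of an acetyltransferase family with similar sequences, had no reads with the empty vector and 36.8 and 35.3 RPKM of exon length in OSKM. Krt90, a keratin gene, stood at 0.00710 and 35.0 RPKM of exon length.

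The falls were led by genes of macrophages and by genes that fibroblasts express in serum. Pf4 and Lyz2, both abundant in macrophages, fell from 28.9 to 0.368 RPKM and from 16.4 to 0.276 RPKM, log2 ratios of -4.45 and -3.77. Ptgs2, the inducible enzyme of prostaglandin synthesis, fell from 47.4 to 3.61 RPKM, 13.1-fold (12.6 to 13.7). Ch25h, which hydroxylates cholesterol, fell from 20.7 to 1.597 RPKM. Ccn2, Ankrd1, Plau and Hbegf, which are described with their groups, made up the rest of the largest falls named here, with Ccl6, a chemokine of myeloid cells, at 6.84 and 0.0900 RPKM.

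**Figure D2:**
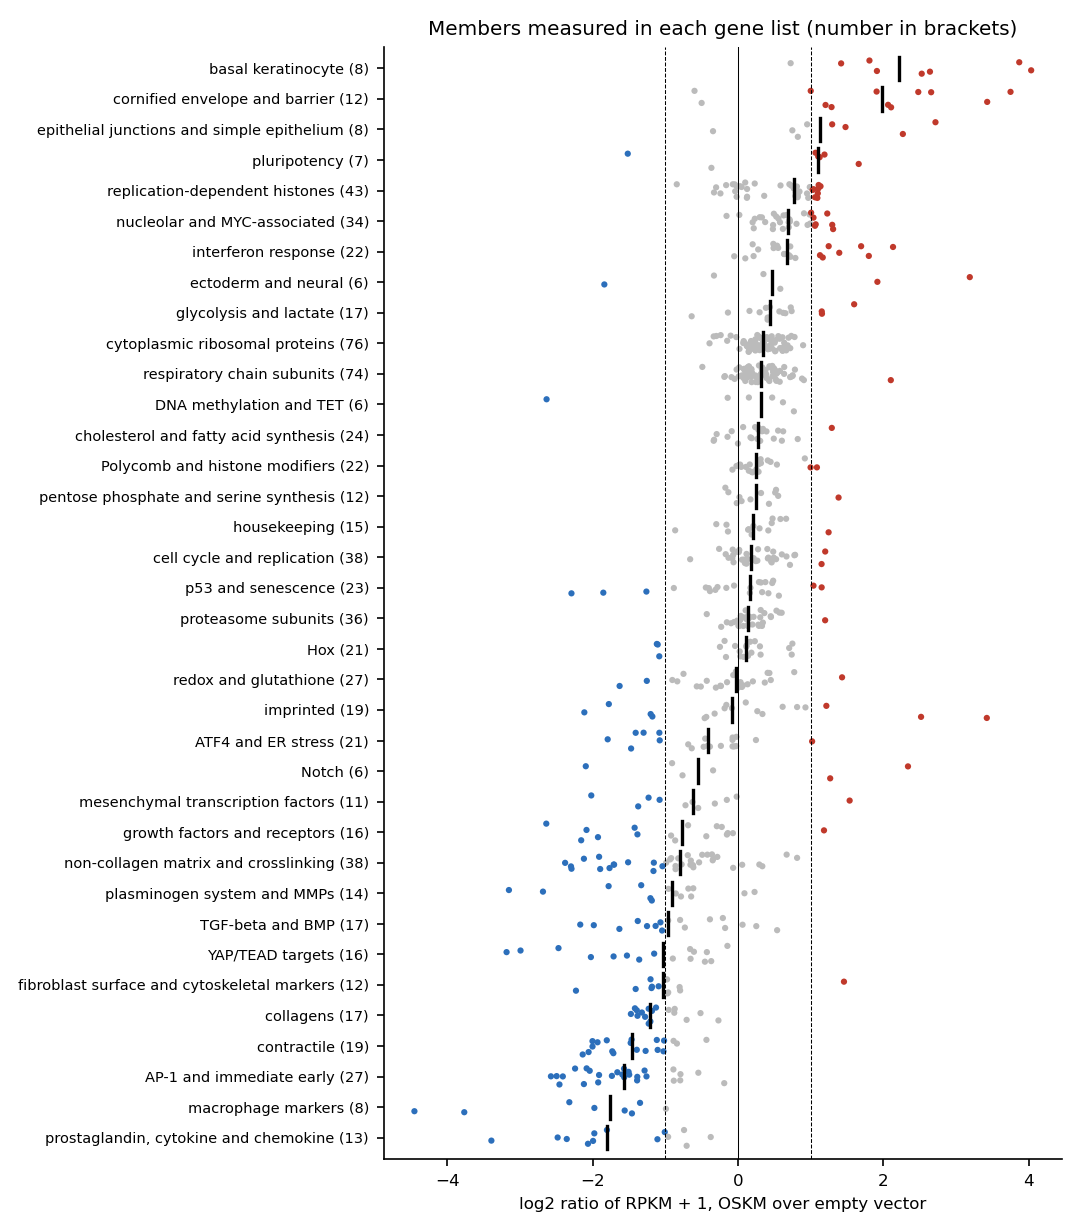
Each point is the log2 ratio of 1 measured member of a gene list (x axis; red rose, blue fell, grey under the rule), for the 36 lists with more than 5 measured members, and black bars are list medians. Medians run from -1.80 for the prostaglandin, cytokine and chemokine list to 2.22 for basal keratinocyte genes, beside 0.18 for all genes.

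Genes of the pluripotent network were mostly below the level threshold. Of 38 genes on the pluripotency list, 7 were measured, of which 5 rose and 1 fell, beside 4.82% and 4.16% of all genes, with a median log2 ratio of 1.11. Centred on the median of all genes, 2 of the 7 rose. Nr0b1, a nuclear receptor of the stem cell network, had no reads with the empty vector and was at 1.10 RPKM in OSKM, at least 170.0-fold higher. Fgf4, a growth factor gene known as a direct target of OCT4 and SOX2, had no reads and 1.15 RPKM, at least 763-fold higher. L1td1, an RNA-binding protein of embryonic stem cells, went from 2 reads to 1906, or from 0.00153 to 2.17 RPKM, a ratio of 1417 (391.8 to 11711). These 3 genes were low in the groups without OCT4: Nr0b1 was at 0 in SKM and 0.00471 in G3SKM, Fgf4 at 0.0192 and 0.0409, and L1td1 at 0.211 and 0.186 RPKM. Zfp296, a zinc finger gene of stem cells, rose from 0.222 to 1.79 RPKM but stood at 2.80 in SKM, and Mybl2, a cell cycle regulator, rose from 1.02 to 3.40 and stood at 3.64 in SKM. Klf2, the one member that fell, went from 6.64 to 1.67 RPKM. It is also a gene of endothelial cells and lymphocytes.

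Nanog, a core gene of the network, stood at 0.0340 RPKM with the empty vector and 0.137 in OSKM, 27 and 73 reads, and is not measured on either scale. Other late genes were likewise near 0 in OSKM: Zfp42 at 0.0527, Esrrb at 0.00233, Dppa4 at 0.00760 and Dppa5a at 0.0238 RPKM, while Utf1, listed at 0 with the empty vector, reached 0.576. On exon length, 13 members were measured, of which 8 rose and 1 fell, with a median of 1.31. Among them Dnmt3b, a DNA methyltransferase of early embryos, went from 0.402 to 2.47 RPKM.

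Part of the epithelial genes rose. On the list of epithelial junctions and simple epithelium, 8 of 37 genes were measured, of which 4 rose and none fell, with a median of 1.13. Krt8, a keratin of simple epithelia, rose from 0.0908 to 6.18 RPKM, a fold of 68.1 (54.2 to 85.8). The tight junction genes Cldn3 and Cldn4 rose from 0.186 to 4.72 and from 0.144 to 1.81 RPKM, and the desmosome gene Dsp from 0.0168 to 1.84. Krt18, the partner of Krt8, did not follow it: it was at 0.947 RPKM with the empty vector and 0.313 in OSKM. Cdh1, the adhesion molecule of epithelia, and Epcam stayed under 1 RPKM on the deposited scale, which counts their introns. On exon length Cdh1 rose from 0.0118 to 3.19 RPKM and Epcam from 0.0287 to 1.70, and 15 of 20 measured members rose and 1, the cadherin gene Cdh3, fell.

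Keratinocyte genes rose as well. Of 8 measured basal keratinocyte genes out of 20 on the list, 7 rose and none fell, with a median of 2.22. Krt14, the keratin of basal epidermal cells, rose from 0.0656 to 16.5 RPKM, a fold of 251 (178 to 368). Krt16 rose from 0.00940 to 13.8 and Krt17 from 0.0112 to 5.32 RPKM, both keratins of injured or growing epidermis. Krt6a and Krt6b, which are similar enough to share reads, stood at 2.78 and 4.78 RPKM in OSKM, with 0.00411 and 0 in the empty vector group. Perp, a desmosome protein, rose from 1.29 to 7.03 RPKM and the integrin gene Itgb4 from 0.0358 to 1.77. Only Sfn, already at 6.47 RPKM in the empty vector group, stayed under the rule at a log2 ratio of 0.73.

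The cornified envelope and barrier list, genes of the outer dead layers of skin, had 12 of 28 members measured, of which 10 rose and none fell, with a median of 1.99. Cnfn had no reads with the empty vector and 12.5 RPKM in OSKM, at least 973-fold higher. Slurp1, a small secreted protein of differentiated keratinocytes, had no reads and 9.79 RPKM, at least 1347-fold higher. Krtdap rose from 0.00283 to 5.34 RPKM, Lgals7 from 0.278 to 6.14 and Sprr1a from 0.200 to 3.51. Cdsn and Klk8, which the empty vector group already expressed, stood at log2 ratios of -0.60 and -0.50. The epidermis had been removed from the skin before culture. The 6 defining keratinocyte markers summed to 1.24 RPKM of exon length with the empty vector and 43.6 in OSKM, of which Krt14 alone made up 41.1, and Dsg3 and Krt1 were at 0 in the empty vector group. Krt5, the partner keratin of Krt14, stood at 0.177 RPKM of exon length in OSKM and Trp63, a regulator of basal keratinocytes, at 0.145, both below the level threshold. Whether keratinocytes were present in the cultures was not tested.

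Mesenchymal genes fell, in part. The label fibroblast was checked with 11 defining markers, all of which were detected in both groups. Their summed exon-length level was 2091 RPKM with the empty vector and 913 in OSKM. On the deposited scale 7 of the 11 fell and none rose. On exon length 8 fell and 2 rose, Dcn and Lum. Of 12 measured fibroblast surface and cytoskeletal markers, 6 fell and 1 rose. Itga5, the fibronectin receptor subunit, fell from 40.3 to 7.81 RPKM, Thy1 from 57.9 to 21.2 and the intermediate filament gene Vim from 342 to 159.8. Ly6a, a surface protein also induced by interferon, went the other way, from 15.3 to 43.8 RPKM. Vim thus remained among the genes with many reads in OSKM, and fell 2.14-fold (2.12 to 2.15).

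Among mesenchymal transcription factors, 11 of 29 were measured, 4 fell and 1 rose, with a median of -0.62. Snai1, a repressor of epithelial genes, fell from 30.3 to 6.73 RPKM, Snai2 from 9.36 to 3.42, Prrx1 from 6.41 to 2.51 and Foxc2 from 8.49 to 2.67. Twist1 did not move past the rule, with 14.5 and 12.9 RPKM. Zeb1 and Zeb2, also repressors of Cdh1, were under 1 RPKM in both groups and on exon length had log2 ratios of -0.44 and -0.97. Foxd1, a forkhead gene of stromal progenitors, rose from 2.33 to 8.66 RPKM, where SKM had 2.81 and G3SKM 1.85.

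Many matrix genes fell. Of 17 measured collagen genes out of 28 on the list, 11 fell and none rose, and the median log2 ratio was -1.20. Col1a1 fell from 332 to 143 RPKM, Col1a2 from 95.4 to 36.0 and Col3a1 from 28.3 to 11.1, the main fibrillar collagens of skin. Col4a1 of basement membranes fell from 11.97 to 3.67 RPKM. The microfibril collagens Col6a1, Col6a2 and Col6a3 stayed under the rule at -0.87, -0.88 and -0.71. Of 38 measured non-collagen matrix and crosslinking genes, 13 fell and none rose, with a median of -0.80. Thbs1 fell from 453 to 86.3 RPKM, Fbln2 from 35.0 to 6.37 and Fn1, fibronectin, from 58.1 to 14.7. The crosslinking enzyme gene Lox fell from 162 to 36.5. On exon length 22 of 43 fell and 2 rose, the small proteoglycan genes Dcn, with a log2 ratio of 1.74, and Lum, with 1.12. Centred on the exon-length median of 0.23, Lum falls under the rule.

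Contractile genes fell too: of 21 on the list 19 were measured, 16 fell and none rose, with a median of -1.46. Tagln, an actin-binding protein of smooth muscle and activated fibroblasts, fell from 362 to 81.7 RPKM. Acta2, smooth muscle actin, fell from 255 to 60.5 RPKM, 4.21-fold (4.17 to 4.24). Cnn1 fell from 17.3 to 3.58, Myl9 from 91.4 to 22.1 and Tpm1 from 66.2 to 16.6 RPKM. Cnn3, Tagln2 and Myh10 stayed under the rule, at log2 ratios of -0.89, -0.84 and -0.43. Cytoplasmic actin, Actb, was also lower without passing the rule, at 1359 and 746 RPKM and a log2 ratio of -0.86.

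YAP and TAZ are coactivators that act through TEAD factors when cells are spread and under tension. Of 16 measured targets out of 20 on the list, 8 fell and none rose, with a median of -1.02. Ccn2, a matricellular protein, fell from 828 to 90.2 RPKM, 9.18-fold (9.05 to 9.30). Ccn1 fell from 319 to 56.8 RPKM and Ankrd1 from 25.8 to 2.37. Amotl2, a feedback inhibitor of YAP, fell from 24.1 to 6.68 RPKM and the receptor gene Axl from 21.8 to 6.91. Lats2, a kinase that restrains YAP, stayed at 4.85 and 4.29 RPKM and Tead1 at 1.43 and 0.773. SKM and G3SKM had values of the same order as OSKM for these genes, with Ccn2 at 103 and 101 RPKM and Ankrd1 at 2.78 and 3.51.

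Promoter sequence was set beside these falls, because TEAD factors recognise the letters GGAATG, searched on both strands. Within 250 bases before the start of RefSeq promoters (GRCm38.p6), this motif stood in 14.4% of 27025 genes with a promoter. It stood in 20.3% of 251 genes that fell, 10.2% of 244 that rose and 11.9% of 5235 under the rule. It was in 7 of 13 YAP/TEAD targets with a promoter, measured or not on the deposited scale, and in 10 of 18 contractile genes. Of the 7, Amotl2, Ankrd1, Axl and Ccn1 fell, Ajuba and Crim1 stayed under the rule, and Ptpn14 was under 1 RPKM in both groups. Of the 10, Myh10 and Tagln2 stayed under the rule, Mylk was under 1 RPKM in both groups, and the rest fell. Of the other lists searched, the motif was in 3 of 20 AP-1 and immediate early genes, 3 of 23 collagens, 1 of 12 genes of the plasminogen system and matrix proteases, 3 of 28 interferon response genes and 0 of 29 nucleolar genes. The letters that AP-1 binds, TGANTCA, stood in 7.82% of all genes with a promoter. They stood in 12.7% of those that fell, 7.79% of those that rose and 4.47% of those under the rule. By list they were in 5 of 12 genes of the plasminogen system and matrix proteases and 7 of 28 interferon response genes. Among AP-1 and immediate early genes they were in 1 of 20. The other lists had 2 of 18 contractile genes, 1 of 13 YAP/TEAD targets, 1 of 23 collagens and 1 of 29 nucleolar genes. A match is a description of letters, not of binding. Parts of 4 promoters of genes that fell are shown 5′ to 3′ in the direction of transcription, with the motif in capitals, to let the sequence around it be read. Ankrd1 is at chr19:36119902-36120027 (minus strand), Ccn1 at chr3:145650023-145650148 (minus strand), Amotl2 at chr9:102717679-102717803 (plus strand) and Acta2 at chr19:34255454-34255579 (minus strand), all upstream of the annotated start.
Ankrd1: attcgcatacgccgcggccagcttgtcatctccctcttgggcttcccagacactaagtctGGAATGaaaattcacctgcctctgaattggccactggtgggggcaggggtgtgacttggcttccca
Ccn1: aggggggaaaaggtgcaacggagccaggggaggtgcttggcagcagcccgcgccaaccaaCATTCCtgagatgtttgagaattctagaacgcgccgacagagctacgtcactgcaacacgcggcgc
Amotl2: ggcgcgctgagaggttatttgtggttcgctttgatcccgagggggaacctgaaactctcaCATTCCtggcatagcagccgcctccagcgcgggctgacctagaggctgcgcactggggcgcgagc
Acta2: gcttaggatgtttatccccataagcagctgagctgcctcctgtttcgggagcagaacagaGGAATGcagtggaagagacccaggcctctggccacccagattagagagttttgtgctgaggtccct

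Immediate early genes, which are switched on within minutes of a growth or stress signal, were lower in nearly every case. Of 27 genes on the AP-1 and immediate early list, all 27 were measured, 21 fell and none rose, with a median of -1.57. Egr3 fell from 7.01 to 0.345 RPKM, Egr2 from 4.94 to 0.257 and Egr1 from 34.0 to 8.24. The AP-1 subunits Junb and Jun fell from 91.4 to 20.3 and from 27.2 to 8.53 RPKM, and Fosl1 from 6.32 to 1.58. Fos, the partner of Jun, was low in both groups at 2.60 and 2.16 RPKM, and Jund stayed under the rule at -0.79. Srf, the factor that drives both immediate early and contractile genes, fell from 14.9 to 5.67 RPKM.

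Many signalling molecules of fibroblasts also fell. On the prostaglandin, cytokine and chemokine list 9 of 13 measured genes out of 26 fell and none rose, with a median of -1.80. Beside Ptgs2, Ccl2, a chemokine that attracts monocytes, fell from 93.5 to 15.9 RPKM, and Cxcl12 from 11.8 to 1.51. Csf1, the growth factor of macrophages, fell from 29.7 to 6.36 RPKM. Lif, a cytokine that sustains mouse stem cells, fell from 5.43 to 0.634. Ccl7 fell from 58.0 to 15.9 RPKM and Cxcl1 from 17.9 to 3.75. The G3SKM group had 46.3 and 14.9 RPKM of these genes and the SKM group 25.5 and 8.87, so OSKM held the lowest value of both. Macrophage markers fell in the same comparison, as given below, and their part in the fall of these genes was not tested.

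Of 16 measured growth factors and receptors, 6 fell and 1 rose, with a median of -0.77. Hbegf fell from 11.5 to 1.00 RPKM and Ereg from 5.58 to 0.732, both ligands of the EGF receptor. Inhba, which encodes an activin subunit, fell from 8.36 to 1.10 RPKM and Vegfa from 7.77 to 2.36. Among binding proteins of insulin-like growth factors, Igfbp5 fell from 8.88 to 1.33 RPKM and Igfbp3 rose from 1.56 to 4.82. In the plasminogen system and among matrix proteases, 6 of 14 measured genes fell and none rose. Plau, urokinase, fell from 23.0 to 2.73 RPKM, and its receptor gene Plaur from 5.68 to 0.946. Mmp14 and the inhibitor Timp1 fell from 36.9 to 14.1 and from 78.9 to 34.2, while Mmp2 stayed under the rule at -0.61.

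TGF-beta and BMP genes were divided by role. Of 17 measured, 8 fell and none rose, with a median of -0.96. The ligands Tgfb1 and Tgfb3 fell from 3.36 to 1.11 and from 10.7 to 2.78 RPKM. Direct targets fell too: Id1 went from 62.6 to 15.1 RPKM, Id3 from 79.1 to 16.8 and the inhibitory Smad7 from 2.62 to 0.521. The signal carriers Smad4 and Smad5 stayed under the rule at 0.25 and 0.06, and the BMP antagonist Grem1 at 0.54. On the Notch list, 6 of 17 genes were measured. The target Hes1 fell from 15.6 to 2.89 RPKM, while Nrarp, a feedback inhibitor, rose from 0.294 to 5.56 and the ligand gene Jag2 from 0.00861 to 1.43. Nrarp was at 1.35 in SKM and 0.915 in G3SKM.

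**Figure D3:**
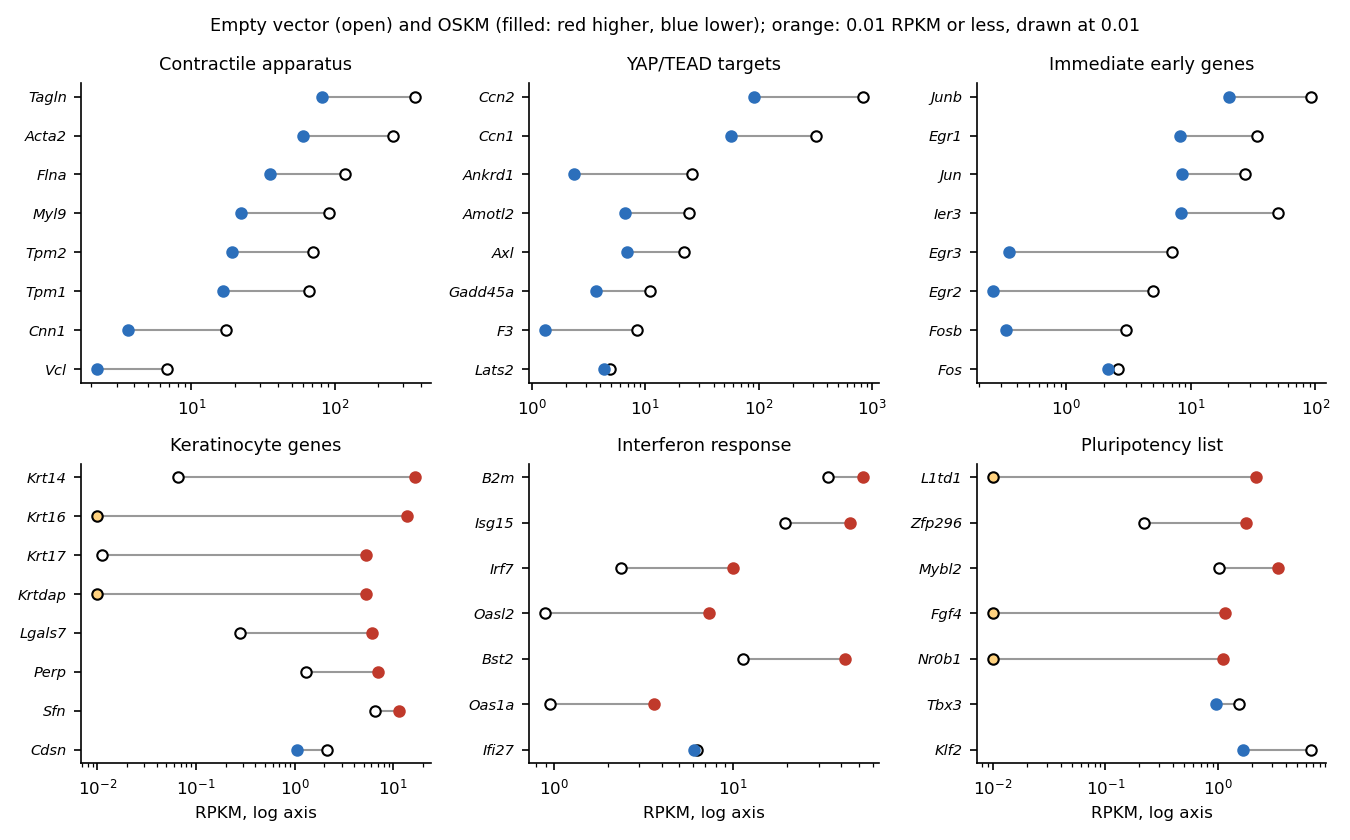
RPKM on a log axis in the empty vector group (open circles, orange where at or under 0.01 RPKM) and in OSKM (filled, red higher and blue lower) for chosen members of the lists named above each panel. Contractile, YAP/TEAD and immediate early genes lie lower in OSKM, with Lats2 and Fos nearly level, and the keratinocyte, interferon and pluripotency genes drawn lie higher except Cdsn, Ifi27, Tbx3 and Klf2, while Klk8, also lower, is not drawn.

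Among markers of other cell types, those of macrophages had the largest fall in summed level of the 8 lists examined. Of 16 markers, all were detected in both groups. Their summed exon-length level was 174 RPKM with the empty vector and 9.02 in OSKM, 19.3-fold lower. The sums were 17.6 with SKM and 14.3 with G3SKM. On the deposited scale 7 of 8 measured fell, and on exon length 11 of 14. C1qa, C1qb and C1qc, subunits of complement C1q, fell from 4.48 to 0.0974, from 2.04 to 0.0309 and from 3.11 to 0.0451 RPKM. Tyrobp, a signalling adaptor of myeloid cells, fell from 1.59 to 0.0177 RPKM, which was 675 and 5 reads. Cd68, a lysosomal protein of macrophages, fell from 5.05 to 1.20 RPKM. All 3 groups with factors were far below the empty vector group.

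Endothelial, blood, Schwann cell and melanocyte markers were low in both groups. Sums of 10 endothelial markers were 1.39 RPKM of exon length with the empty vector and 6.06 in OSKM, and those of 10 erythroid markers 0.842 and 4.70, with 6 erythroid markers at 0 with the empty vector and Ahsp at 0 in OSKM. Hbb-y, an embryonic globin gene, was listed without reads in the empty vector group and at 1.17 RPKM in OSKM. Mast cell and lymphocyte markers summed to 0.181 and 1.10, and Schwann cell and melanocyte markers to 4.62 and 4.56. Skeletal muscle markers summed to 45.0 and 20.5 RPKM, adipocyte markers to 9.34 and 11.5. Cartilage and bone markers summed to 208 and 145. Of 4 measured cartilage and bone markers 2 fell, Col2a1 and Spp1, and 2 rose, the osteocalcin genes.

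Part of the interferon response genes rose in OSKM. Of 39 genes on the list, 22 were measured, 7 rose and none fell, with a median of 0.67; on exon length 15 of 35 rose, with a median of 0.83. Oasl2, an antiviral synthetase-like protein, rose from 0.895 to 7.32 RPKM, a fold of 8.18 (7.75 to 8.65). Irf7, a transcription factor that amplifies the response, rose from 2.38 to 9.96 RPKM and Bst2, which tethers budding viruses, from 11.4 to 42.2. Isg15, a ubiquitin-like modifier, rose from 19.5 to 45.0 RPKM. Gbp3 rose from 0.344 to 2.54 and Oas1a from 0.948 to 3.63, though members of the Gbp, Ifit and Oas families can share reads. Stat2, which carries the signal, stayed under the rule at 0.64.

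The other factor groups had lower values of these genes. Oasl2 was at 0.994 RPKM in SKM and 1.14 in G3SKM, Irf7 at 4.07 and 2.36, Isg15 at 13.3 and 12.9, and Bst2 at 24.1 and 21.8. For Isg15 the SKM and G3SKM values were below that of the empty vector group, and for Oasl2 close to it. Over the whole list, 22 genes were measured against the empty vector in OSKM, with 7 higher, beside 1 of 15 in SKM and 0 of 16 in G3SKM. In SKM 1 of the 15 was lower. The 3 comparisons share the same empty vector values but not the same members. A member under 1 RPKM with the empty vector was measured only where the factor group reached 1 RPKM. The 3 counts therefore describe different sets and are no contrast between groups. With 1 value per group the difference between groups has no test.

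The element that interferon-activated factors bind, known as ISRE, was searched on both strands as GAAA, any 2 bases and GAAA again. It stood within 250 bases before the start in 3.46% of all 27025 genes with a RefSeq promoter, in 4.10% of the genes that rose and in 2.79% of those that fell. Of 28 interferon list members with a promoter, 14 held it. Among these 14, Isg15, Bst2, Oas1a and Gbp3 rose, while B2m, Gbp7, Ifit1, Ifit3 and Stat2 stayed under the rule. The others, Gbp2, Ifit3b, Oas3, Rsad2 and Trim30a, were under 1 RPKM in both groups. Oasl2 and Irf7, which also rose, were not among the 14. Of the other lists searched, 2 of 13 YAP/TEAD targets, 1 of 18 contractile genes, 1 of 20 AP-1 and immediate early genes, 1 of 12 genes of the plasminogen system and matrix proteases, 0 of 23 collagens and 0 of 29 nucleolar genes held the element. For 4 of the genes that rose, the stretch around the match is shown to let the repeated element be seen, 5′ to 3′ with matches in capitals, and overlapping matches run together. Isg15 is at chr4:156200819-156200944 (minus strand), Bst2 at chr8:71537527-71537656 (minus strand), Oas1a at chr5:120907526-120907599 (minus strand) and Gbp3 at chr3:142559945-142560043 (plus strand) of GRCm38.p6.
Isg15: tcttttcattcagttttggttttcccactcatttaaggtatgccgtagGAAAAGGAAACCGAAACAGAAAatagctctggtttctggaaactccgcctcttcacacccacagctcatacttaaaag
Bst2: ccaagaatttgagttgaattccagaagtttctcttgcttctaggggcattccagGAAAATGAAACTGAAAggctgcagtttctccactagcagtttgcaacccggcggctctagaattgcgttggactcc
Oas1a: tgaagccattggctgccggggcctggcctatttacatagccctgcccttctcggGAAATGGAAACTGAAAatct
Gbp3: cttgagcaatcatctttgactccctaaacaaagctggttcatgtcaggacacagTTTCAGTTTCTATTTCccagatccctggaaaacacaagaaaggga
The capitals cover 3 overlapping matches in Isg15 and 2 in each of the others. In Oas1a the last match begins 14 bases before the start site and in Bst2 124 bases before it.

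Some growth genes rose. Of 34 measured nucleolar and MYC-associated genes out of 35, 7 rose and none fell, and the median was 0.68, beside 0.18 for all genes. Centred on the median of all genes, 3 of them rose. Among those past the rule, Nop56, a core protein of small nucleolar ribonucleoproteins, rose from 24.6 to 51.6 RPKM and Nop16 from 6.28 to 14.2. Polr1c, a subunit of RNA polymerase I, rose from 9.12 to 19.4 RPKM. Npm1 and Ncl, abundant nucleolar proteins, stayed under the rule at 0.70 and 0.56, as did Odc1, a known MYC target, at 0.67. The summed Myc value itself was lower in OSKM, as given above. None of 76 measured cytoplasmic ribosomal protein genes passed the rule in either direction, and their median was 0.34.

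Cell cycle genes lay close to the median of all genes: of 38 measured, 2 rose and none fell, with a median of 0.18, and the share that rose was near the 4.82% of all genes. The 2 were Cdt1, which licenses replication origins, at 5.32 and 13.55 RPKM, and Mcm7, a helicase subunit, at 6.97 and 16.7. Mki67, a marker of cycling cells, stood at a log2 ratio of 0.42, Ccnd1 at -0.06 and Ccnd2 at -0.66. On the p53 and senescence list, 2 of 23 measured genes rose and 3 fell, beside 4.82% and 4.16% of all genes. Centred on the median of all genes, none of the 23 rose and 4 fell. Trp53 and its target Cdkn1a stood at log2 ratios of 0.17 and 0.17, while Plk2 fell from 49.2 to 9.25 RPKM and Gadd45b from 29.95 to 7.57. The genes that rose were Cdkn2a, which encodes the p16 and ARF barrier proteins, from 0.440 to 2.20 RPKM, and Tigar, from 0.497 to 2.08. Hmga2, a chromatin protein of embryonic mesenchyme, fell from 4.67 to 1.37.

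Metabolic lists moved in few members. Of 17 measured glycolysis and lactate genes 3 rose, beside 4.82% of all genes, and 1 rose once centred on the median of all genes. The 3 were the lactate transporter Slc16a1, from 1.59 to 6.86 RPKM, the lactate dehydrogenase subunit Ldhb, from 0.995 to 3.45, and Pdk1, which inhibits pyruvate dehydrogenase, from 0.106 to 1.46. Shmt1 of folate metabolism rose from 0.717 to 3.49 RPKM and Dhcr7, the last enzyme of cholesterol synthesis, from 0.553 to 2.80. Each was the only member of its list past the rule, of 12 and 24 measured, beside 4.82% of all genes that rose. Of 74 measured respiratory chain subunits 1 rose and of 36 proteasome subunits 1 rose, shares below the 4.82% of all genes that rose. They were Cox6b2 from 6.22 to 30.1 RPKM and the immunoproteasome gene Psmb10 from 5.38 to 13.7, with list medians of 0.32 and 0.14. On the redox list 1 of 27 measured genes rose and 2 fell, beside 4.82% and 4.16% of all genes. Sod2, the mitochondrial superoxide dismutase, rose from 4.11 to 12.8 RPKM, and Srxn1 and Gpx8 fell from 14.6 to 4.06 and from 25.5 to 10.1. Of 21 measured ATF4 and ER stress genes 6 fell and 1 rose, beside 4.16% and 4.82% of all genes, with a median of -0.42. Cebpb fell from 49.1 to 13.46 RPKM, Atf5 from 49.4 to 17.2 and Ddit3, the CHOP factor, from 5.62 to 2.14, while Atf4 itself stayed under the rule at -0.45. Sdf2l1, an ER protein, was the member that rose, from 6.74 to 14.7 RPKM.

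Chromatin genes were mostly level. Of 6 measured DNA methylation genes only Gadd45g, an inducible stress gene, passed the rule, falling from 72.1 to 10.8 RPKM. The maintenance pair Dnmt1 and Uhrf1 stood at log2 ratios of 0.62 and 0.77. On exon length Tet2, a 5-methylcytosine oxidase, went from 0.604 to 3.99 RPKM and Tet3 from 2.01 to 5.40, both past the rule. Centred on the exon-length median of 0.23, Tet3 falls under the rule. Among 22 measured Polycomb and histone modifier genes 2 rose, Cbx2 and the arginine methyltransferase gene Prmt5, and none fell. Centred on the median of all genes, none of the 22 rose. Of 19 measured imprinted genes 4 fell and 3 rose, beside 4.16% and 4.82% of all genes, and centring left both counts the same. The fetal growth factor Igf2 fell from 81.2 to 18.0 RPKM, its neighbour H19 from 294 to 129, Dlk1 from 5.24 to 0.822 and Meg3, which lies beside Dlk1, from 16.9 to 6.78. Phlda2 and Peg10, both genes of the placenta, rose, Peg10 from 2.19 to 6.42 RPKM, as did Nnat, a neuronal membrane protein, with a log2 ratio of 2.52. Of 21 measured Hox genes, 3 fell and none rose, beside 4.16% and 4.82% of all genes. The 3 were Hoxb2, at 6.37 and 2.40 RPKM, Hoxb9, at 5.98 and 2.30, and Hoxc8, at 5.46 and 2.01.

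Genes of other lineages rose singly. Hand1, a regulator of trophoblast giant cells and lateral mesoderm, rose from 0.0131 to 4.25 RPKM and stood at 5.37 in SKM and 3.17 in G3SKM. Esx1, an X-linked homeobox gene of the placenta, had no reads with the empty vector and 2.99 RPKM in OSKM, at least 741-fold higher, with 2.87 in SKM. Those 2 and Peg10 were the measured members of the trophoblast list of 17, and all 3 rose. Nes, an intermediate filament gene of neural progenitors that cultured fibroblasts also express, fell from 41.9 to 10.997 RPKM. Zic1 and Sox11, neural regulators, stayed under the rule at 0.35 and 0.58. On the ectoderm and neural list of 23, 6 genes were measured. Of these 2 rose and 1, Nes, fell, beside 4.82% and 4.16% of all genes. The 2 that rose were Sox3 and Sox21, at log2 ratios of 3.19 and 1.92, whose reads are uncertain as given above.

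**Figure D4:**
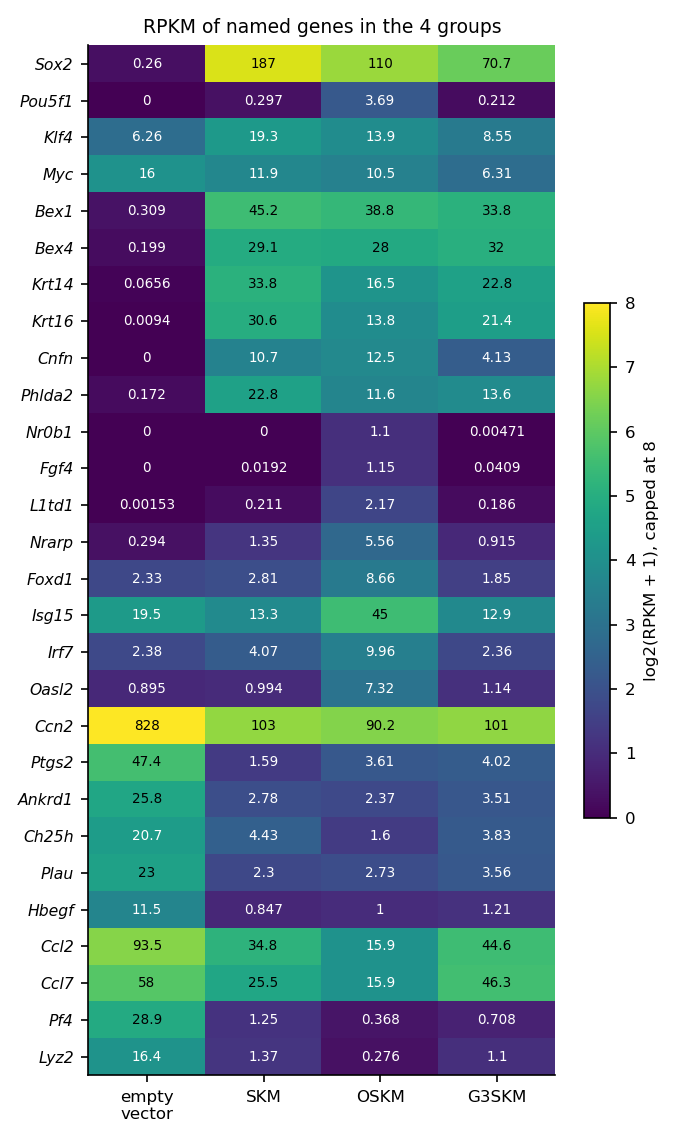
RPKM of named genes in each of the 4 groups (columns), written in each cell and coloured by log2(RPKM + 1). Nr0b1, Fgf4, L1td1, Nrarp, Foxd1, Isg15, Irf7 and Oasl2 have their highest value in OSKM, whereas Ccn2, Ankrd1, Plau and Hbegf are lower in all 3 groups with factors than in the empty vector group.

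Set beside the other factor groups, against the same empty vector values, SKM had 905 genes higher (8.88%) and 610 lower (5.98%) of 10195, and G3SKM had 732 higher (7.11%) and 386 lower (3.75%) of 10298. OSKM held the highest value of the 3 factor groups in 204 of the 492 genes that rose (41.5%), beside 31.2% of all 10212 genes, and the lowest in 118 of them (24.0%). It held the lowest value in 256 of the 425 genes that fell (60.2%), beside 25.4% of all. These genes were chosen by their OSKM value, so the shares describe them and test nothing. Krt14, for instance, was at 16.5 RPKM in OSKM, below the 33.8 of SKM and the 22.8 of G3SKM, and Sbsn, a barrier gene, at 6.26, below 25.0 and 15.5. Col1a1 was at 352 RPKM in SKM, above the empty vector value, and at 143 in OSKM.

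Genes that rose on the deposited scale were shorter than genes that fell. That scale appears to divide by span, so a short gene reaches 1 RPKM with fewer reads. The part of the scale in the difference was not tested. Among protein-coding genes, the 316 that rose had a median span of 5.33 kb, the 319 that fell 10.3 kb and the 6425 under the rule 15.0 kb. The median exon lengths were 2.50, 3.51 and 3.92 kb. The median GC content was 54.2%, 53.6% and 50.8%. Across 9478 genes with a GC value, the rank correlation of the log2 ratio was 0.06 with GC content and -0.13 with span, given as a description, since genes share their libraries. With 172 of the 316 under 1 RPKM in the empty vector group, the rise was in large part from little or no signal, and 17 of them had no reads there. On the X chromosome lay 27 of the genes that rose (8.54%), 5 of those that fell (1.57%) and 2.97% of those under the rule. Bex1, Bex4, Esx1, Nr0b1 and Sox3 are among the X-linked genes that rose.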

How the data were processed

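RNA of the cells was sequenced after cDNA amplification, per the labels' protocols. The deposited RPKM values came from reads aligned with TopHat 1.3.0 to mm9, per the submitters' processing notes; the counter, annotation and way of combining 2 replicates are not stated in the sources used here. The authors also deposited log2 ratios of RPKM, which were used only as a check and differed from recomputed ones by at most 0.0017. Ensembl gene IDs were given symbols, spans and exon lengths from GENCODE M21 (25103 of 27597 matched, 91.0%). Values at the placeholder of 0.001 were taken as 0. Reads were recovered from the smallest step of RPKM times span; 76.6% of genes with 1 to 1000 reads in the empty vector group and 75.6% in OSKM came out whole within 0.05, where chance gives 10%, so no count test was run. With 1 value per gene and group there is no test, and genes were called by a log2 ratio of RPKM + 1 of at least 1 among genes at 1 RPKM or more in either group. Intervals are 95% Clopper-Pearson intervals on reads, rounded to whole numbers.

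Genes named are the delivered factors, Nanog, the 10 largest rises and falls among protein-coding genes at 5 RPKM or more on each length scale, up to 6 per list in each direction, members of a list whose size is given, and marker genes. Some genes that this rule names are not reported here. Cdkn2a, Tigar, Sdf2l1, Cox6b2, Psmb10 and the small RNAs were named for the counts they make up. The gene comparison and its lists were chosen with earlier results of these data known. The alternatives tried were other pseudocounts, thresholds and centres, exon length, gene classes, a minimum of reads and a GC correction. Promoters came from the RefSeq table of GRCm38.p6. The tools were SciPy 1.17.1, numpy 2.4.6, pandas 2.3.3 and matplotlib 3.10.9 under Python 3.11.15.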

Additional observations from a re-analysis of the deposited data

How the results depend on the processing

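The 492 genes higher and 425 lower depend on the settings. With a pseudocount of 0.1 RPKM there were 1065 higher and 718 lower, and with 5 RPKM 111 and 164, where low genes lose weight by construction. A filter at 5 RPKM left 264 higher and a rule of 2 left 68 and 61. Centring gave 294 higher on the median and 304 on a trimmed mean. Exon length gave 1324 higher and 731 lower, and with the GC trend also removed 1296 and 743. Protein-coding genes alone gave 316 higher. The other counts (no filter, at least 100 reads, GC trend removed, and lower genes under the 5 RPKM filter, centring and protein-coding genes) stayed within 1.5 times. With the filter at 5 RPKM the list median turned to -1.52 for pluripotency, where 1 member (Klf2) was left, and to 0.12 for Notch, where 2 were left. Of 179 named genes 58 stayed on their side of the rule under every alternative run, and no gene changed direction; most losses came with the larger pseudocount or the rule of 2. Lists were judged instead by whether their median was at least 0.5 in size, and 20 of 36 stayed the same by that measure under every alternative run. Pou5f1, Nr0b1, Fgf4 and L1td1 fell under the rule with a pseudocount of 5 RPKM. No paired analysis was possible because each column stands for 2 replicates combined. Genes under 1 RPKM in both groups are limited by depth and by the span scale.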

Other observations

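Some small nuclear and regulatory RNA genes were also higher in OSKM, although several of these values rest on few reads. All 3 measured ribozyme RNA genes rose: Rmrp, the RNA of the mitochondrial RNA processing ribonuclease, from 3.30 to 14.9 RPKM, and Rprl3 and Rprl2, related to the RNA of ribonuclease P, from 0.529 to 3.29 and from 0.0934 to 1.296 RPKM. Rmrp was at 50.1 RPKM in G3SKM. Rn7sk, which holds the elongation factor P-TEFb inactive, rose from 5.97 to 15.2 RPKM, and Rny3, a Y RNA, fell from 7.04 to 2.52. Of 165 measured small nucleolar RNA genes 14 rose and 5 fell, beside 4.82% and 4.16% of all genes.

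Of 60 measured microRNA loci 4 rose (6.67%) and 9 fell (15.0%), beside 4.82% and 4.16% of all genes. Mir22 fell from 18.5 to 6.69 RPKM and Mir1981 rose from 7.55 to 43.3. Values at such loci can hold reads of the host transcript, so they are not levels of the mature microRNA.

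Replication-dependent histone genes, whose transcripts usually lack a poly(A) tail, had 8 of 43 measured members higher and none lower, with a median log2 ratio of 0.77. Centred on the median of all genes, none of the 43 rose and 1 fell. Of those 8, 7 encode histone H4, among them Hist1h4n at a log2 ratio of 1.14, and 1 is Hist1h3c at 1.11. Copies of histone genes are similar enough to share reads, so the split between them is uncertain. Cell cycle genes, by contrast, had a median of 0.18, that of all genes.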
